A study of Mus musculus with 4 samples.

Results

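Chil3, Chil4, Retnla and Ear2 are 4 mouse genes whose secreted products are used as marks of the alternatively activated, or M2, macrophage. They were picked by symbol, through the NCBI gene IDs that the deposited tables carry, and are 4 of the 16403 genes with reads in any of the libraries. Total RNA was sequenced from peritoneal macrophages of C57BL/6 mice, aged 6 to 8 weeks, in 4 groups of 1 library: wild-type cells and TIF1a-/- cells, each untreated or given IL-4. TIF1a is another name for Trim24. The knockout was made with a Cre driven from the LysM (Lyz2) locus on floxed Trim24, so deletion was limited to myeloid cells, and wild-type littermates served as controls. In all 4 groups the cells had been elicited with 4% thioglycolate, collected after 4 days, allowed 4 h to adhere and starved in 0.5% serum, and the IL-4 groups then received 20 ng/mL for 6 h. The number of mice behind each library is not given in the sources used here. With 1 library per group, every test compares the reads of particular libraries, not the conditions, and has no replicate check.

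IL-4 binds the IL-4 receptor on macrophages, whose Janus kinases phosphorylate the transcription factor Stat6, and Stat6 then enters the nucleus and binds the promoters of its target genes. Chil3 (Ym1) and Chil4 (Ym2) encode chitinase-like proteins, relatives of chitinases that lack the enzymatic activity. Retnla (also called Fizz1 or RELM-alpha) encodes a small cysteine-rich protein of the resistin family, and Ear2 encodes an eosinophil-associated ribonuclease of the RNase A superfamily. Chil3 and Retnla are among the genes most often measured to follow alternative activation in mouse macrophages. The study asked whether loss of Trim24 alters the IL-4 response.

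The promoters are shown because Stat6 acts on its target genes at such sequences, and because Chil3 and Chil4 resemble each other there. Each line gives the 250 bases before the annotated transcription start, 5′ to 3′ on the strand of the gene, from RefSeq on GRCm38.p6. The Chil3 window is chr3:106167565-106167814 on the minus strand and the Chil4 window chr3:106219480-106219729 on the minus strand. The Retnla window is chr16:48842359-48842608 on the plus strand and the Ear2 window chr14:44102404-44102653 on the plus strand. Capitals mark matches to the STAT motifs TTCNNNNGAA (the spacing that Stat6 prefers) and TTCNNNGAA.
Chil3: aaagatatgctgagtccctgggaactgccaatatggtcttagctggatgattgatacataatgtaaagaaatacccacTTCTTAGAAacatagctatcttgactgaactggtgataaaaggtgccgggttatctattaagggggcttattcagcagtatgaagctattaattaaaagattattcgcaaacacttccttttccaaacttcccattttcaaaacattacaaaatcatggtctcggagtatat
Chil4: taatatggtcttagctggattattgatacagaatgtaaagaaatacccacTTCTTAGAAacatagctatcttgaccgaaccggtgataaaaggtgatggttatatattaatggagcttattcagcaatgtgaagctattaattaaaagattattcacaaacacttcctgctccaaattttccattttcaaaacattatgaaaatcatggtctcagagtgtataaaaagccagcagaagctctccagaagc
Retnla: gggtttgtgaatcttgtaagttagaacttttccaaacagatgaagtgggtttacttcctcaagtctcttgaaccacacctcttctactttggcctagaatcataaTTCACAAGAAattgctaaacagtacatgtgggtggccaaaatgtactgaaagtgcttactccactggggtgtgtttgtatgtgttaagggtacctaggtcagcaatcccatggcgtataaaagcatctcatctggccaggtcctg
Ear2: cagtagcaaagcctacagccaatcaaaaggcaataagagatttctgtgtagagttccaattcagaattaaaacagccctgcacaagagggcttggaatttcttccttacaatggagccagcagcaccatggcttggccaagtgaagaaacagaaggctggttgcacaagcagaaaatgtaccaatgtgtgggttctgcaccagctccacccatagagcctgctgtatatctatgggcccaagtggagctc

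Retnla held 1 match to TTCNNNNGAA, ttcacaagaa, between positions -145 and -136 counted from the transcription start. No match to these letters lay in the windows of the other members. Chil3 and Chil4 each held the same 9 bases, ttcttagaa, that match TTCNNNGAA, at -172 to -164 in Chil3 and at -200 to -192 in Chil4. Both motifs read the same on both strands, no match of one overlapped a match of the other, and they were looked for from 250 bases before to 50 after the start. Of 32851 mouse promoter windows of that length, 6.95% held TTCNNNNGAA and 8.30% held TTCNNNGAA. A looser C/EBP motif, TTNNGNAA on either strand, matched 3 times each in Chil3, Chil4 and Retnla and 1 time in Ear2. At least 1 match was present in 40.7% of all windows, a share that does not tell how common 3 matches are. TATAAA on either strand, present in 13.6% of windows, began at -31 in Chil4, at -30 in Retnla and at -3 in Chil3, and Ear2 had none. The annotated starts of Chil3 and Chil4 therefore do not lie at the same point of their shared sequence. Over 221 bases aligned between the Chil3 and Chil4 promoters, 91.0% were identical. These matches describe the letters, and binding was not measured in the data analysed here.

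The libraries held 11026033 to 11250099 expected reads and listed 14717 to 14923 genes. An expected count is the number of reads assigned to a gene by a model that divides reads matching several genes, and FPKM scales it by transcript length and library total. At this depth 3 reads, taken as the floor of detection, corresponded to 0.267 to 0.272 CPM, a scale of reads relative to the library total. The intervals and floors given here measure counting error and nothing else. Trim24, the targeted gene, had 174.92 reads untreated and 103 with IL-4 in the wild-type, against 4 and 10 in the knockout. The macrophage markers (Adgre1, Csf1r, Cd68, Itgam, Lyz2, Mertk and Fcgr1) had reads in every library.

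**Figure D1:**
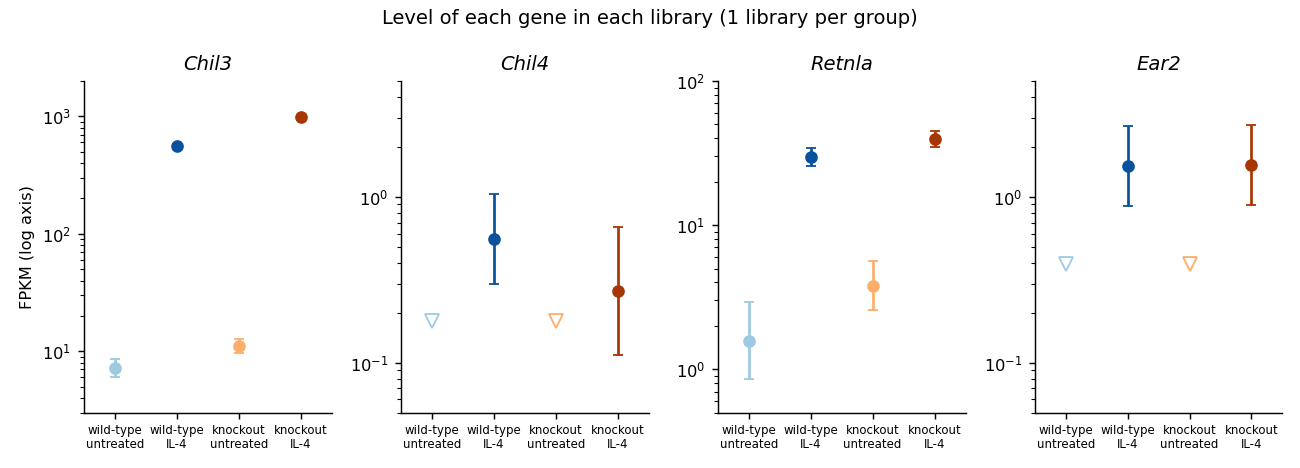
Level of each member in FPKM on a log axis in each of the 4 libraries, with 95% counting intervals, where open triangles mark libraries with 0 reads and stand at the floor of 3 reads. Chil3 and Retnla had reads in every library and were higher in both IL-4 libraries, and Chil4 and Ear2 had reads only in the IL-4 libraries.

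Chil3 was the most abundant member. In the wild-type it had 121 expected reads (7.17 FPKM) untreated and 9566.46 (555.48 FPKM) with IL-4. In the knockout it had 187 reads (11.09 FPKM) untreated and 16570.46 (982.85 FPKM) with IL-4. The levels thus rose from the untreated wild-type through the untreated knockout and the IL-4-treated wild-type to the IL-4-treated knockout, and no neighbours in this order had overlapping 95% Wilson intervals. These intervals ran from 9.18 to 13.1, 14.7 to 19.6, 833 to 868 and 1480 to 1526 CPM in that order. By FPKM, Chil3 moved from rank 6444 to rank 132 among the genes of the wild-type libraries, and from 5064 to 51 in the knockout. It took 0.150% of all reads in the knockout IL-4 library and 0.0850% in the wild-type IL-4 library.

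Retnla was next. In the wild-type it had 10 reads (1.58 FPKM) untreated and 191 (29.68 FPKM) with IL-4, and in the knockout 24 (3.81 FPKM) and 250 (39.68 FPKM). The order of its levels was the same as that of Chil3. The Wilson intervals of the untreated libraries overlapped, at 0.492 to 1.67 CPM for wild-type and 1.46 to 3.24 CPM for knockout cells, and those of the IL-4 libraries did not, at 14.7 to 19.6 and 20.0 to 25.7 CPM. On the FPKM scale Chil3 was 4.54 times as high as Retnla in the untreated wild-type library and 18.7 times as high with IL-4, and 2.91 and 24.8 times as high in the knockout.

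Chil4 and Ear2 were near the limit of detection. Chil4 had 0 reads in both untreated libraries, and with IL-4 wild-type cells had 9.54 reads (0.56 FPKM) and knockout cells 4.54 (0.27 FPKM). Ear2 had 0 reads in both untreated libraries, 12 (1.54 FPKM) in the wild-type IL-4 library and 11.92 (1.56 FPKM) in the knockout IL-4 library. A count of 0 allows up to the floor of 3 reads, so a low level without IL-4 was not detectable at this depth. The Wilson intervals of the IL-4 libraries overlapped between genotypes for both genes, and for Ear2 ran from 0.610 to 1.86 and from 0.617 to 1.89 CPM. In bulk RNA, fewer expressing cells and less RNA per cell cannot be told apart, for these genes as for the others.

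The non-whole counts come from reads that matched more than 1 gene. Chil3 (gene ID 12655, chr3:106147554-106167564) and Chil4 (104183, chr3:106201491-106219479) are neighbours on chromosome 3, and their GENCODE transcripts were identical at 1452 of 1538 aligned bases (94.4%). Of the 50-base windows of the Chil4 transcript, 275 of 1490 (18.5%) also occurred in Chil3, and of the 100-base windows 54 of 1440 (3.75%). The expected counts of the pair summed to whole numbers in each library, 121, 9576, 187 and 16575. Chil4 took 0.0996% of the summed reads in the wild-type IL-4 library and 0.0274% in the knockout IL-4 library. The split between the paralogues is therefore uncertain for Chil4, while the Chil3 value would hardly move if every read of the pair were its own. The read length is not given in the sources used here.

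Ear2 (13587, chr14:44102654-44103531) lies in a cluster of near-identical ribonuclease genes. Its transcript was 96.8% identical to that of Ear1 and 94.7% to that of Ear10, and shared 23.8% and 27.7% of their 50-base windows. In the knockout IL-4 library Ear1 had 1.08 reads, which with those of Ear2 made a whole 13. Ear10 had 1 read in the untreated knockout library and 0 elsewhere. With these paralogues summed, the knockout libraries held 1 read untreated and 13 with IL-4. Retnla (57262, chr16:48842609-48844461) shared no 50-base window with Retnlg or Retnlb, its transcript being 84.5% and 74.8% identical to theirs, and its counts were whole in every library.

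The IL-4 response of the wild-type macrophages was then examined. All 4 members were called higher in the IL-4 library than in the untreated one (two-sided Fisher's exact test, Benjamini-Hochberg adjusted p under 0.05, and a fold above 1.5 on the log2(FPKM + 0.1) scale). Among 15593 tested genes, 4.91% were called higher and 7.89% lower. Chil3 rose by 6.26 ± 0.13 on the log2 scale (± counting SE), a FPKM ratio of 77.5 with a 95% counting interval from 64.8 to 92.7. It stood at rank 8 of the 15593 genes by this log2 ratio. Retnla rose by 4.15 ± 0.46, a FPKM ratio of 18.8 (10.1 to 35.0, Fisher's exact test, adjusted p = 2.5e-42). Ear2 with IL-4 stood at 3.92 times the floor of 3 reads in the untreated library (Fisher's exact test on the counts, adjusted p = 0.0022). Chil4 stood at 3.12 times that floor (Fisher's exact test, adjusted p = 0.0077). These folds leave out the counting error of the IL-4 reads. The log2 ratios of Chil4 and Ear2 depended on the pseudocount, at 2.72 and 4.04 with 0.1 and at 0.64 and 1.34 with 1. Their calls rest on 9.54 and 12 reads and were lost when a biological coefficient of variation of 0.2 between libraries was assumed in edgeR's exact test, with adjusted p = 0.15 for Chil4 and 0.071 for Ear2.

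In the knockout macrophages 3 of the 4 members were called higher with IL-4, where 5.29% of 15738 genes were called higher and 4.04% lower. Chil3 rose by 6.46 ± 0.11 on the log2 scale, a FPKM ratio of 88.6 (95% counting interval 76.7 to 102), which placed it at rank 3. Retnla rose by 3.35 ± 0.31, a FPKM ratio of 10.4 (6.88 to 15.8, Fisher's exact test, adjusted p = 3.2e-47), and its call was lost only at a larger assumed coefficient of variation of 0.4 (edgeR's exact test, adjusted p = 0.13). Ear2 stood at 3.97 times the floor (Fisher's exact test on the counts, adjusted p = 0.0015). This call was lost at an assumed coefficient of variation of 0.2 (edgeR's exact test, adjusted p = 0.074). Chil4 stood at 1.51 times the floor and was not called (Fisher's exact test, adjusted p = 0.11). Both folds again leave out the counting error of the IL-4 reads. With the Ear1 and Ear10 reads summed into Ear2, the log2 ratio was 2.58 in place of 4.05, since 1 Ear10 read then stood in the untreated library.

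**Figure D2:**
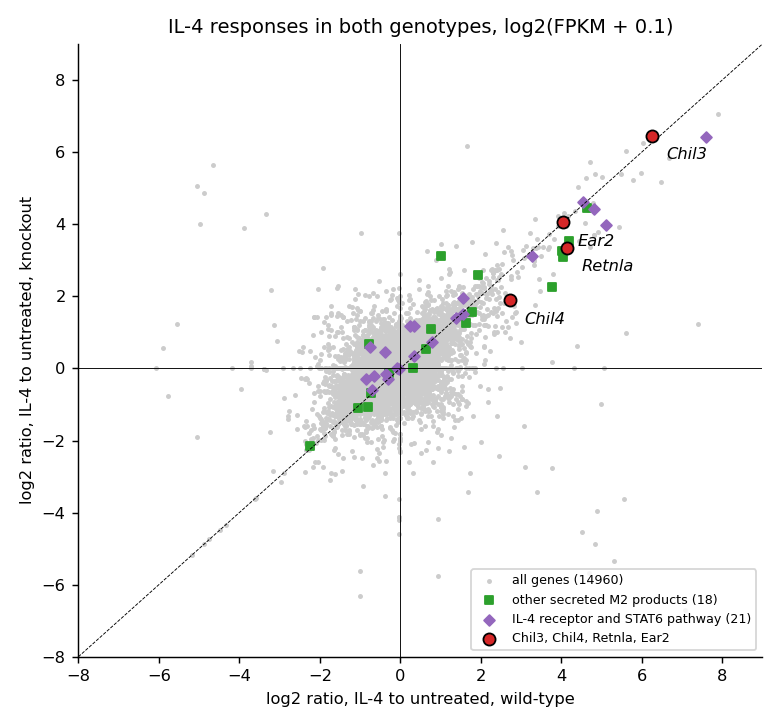
Log2 ratio of IL-4 to untreated on the log2(FPKM + 0.1) scale, wild-type on the horizontal and knockout on the vertical axis, for 14960 genes with a read in both pairs (grey), 2 gene lists (green squares and purple diamonds) and the members (red), with a dashed line of equal response. Chil3 lay at 6.26 and 6.46, Ear2 at 4.04 and 4.05, Retnla at 4.15 and 3.35 and Chil4 at 2.72 and 1.89.

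An additive model of genotype and treatment, fitted to all 4 libraries with 1 residual degree of freedom, gave an IL-4 effect over both genotypes. The spread in this model comes from how the 4 libraries depart from the fit, not from replicate cultures or mice. This also holds for the genotype effect given below. Of 11791 genes fitted, 12.0% were higher with IL-4 by edgeR's quasi-likelihood test at an adjusted p under 0.05. Chil3 was higher by 6.39 on the log2 scale (edgeR, adjusted p = 1.3e-13) and Retnla by 3.70 (adjusted p = 2.1e-08). Ear2 passed the filter on low counts only through its IL-4 libraries, so its fitted IL-4 effect is not given. Chil4 did not pass the filter.

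A direct comparison of the response sizes was possible for the 2 members with reads in every library. For Chil3 the knockout response exceeded the wild-type response by 0.19 on the log2 scale of counts, with a 95% counting interval from -0.14 to 0.53. For Retnla the knockout response was the smaller, with a difference of -0.81 and an interval from -1.88 to 0.27. Both intervals contained 0, and the wider one, of Retnla, rests on 10 reads in the untreated wild-type library. Chil4 and Ear2 had 0 reads in both untreated libraries and gave no such difference.

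The genotypes were next compared within each treatment. Of the 2 members with reads in the untreated libraries, Chil3 was called higher in the knockout, where 0.839% of 15623 genes were called higher and 0.742% lower. The Chil3 log2 ratio was 0.62 ± 0.17, a FPKM ratio of 1.55 (1.23 to 1.94, Fisher's exact test, adjusted p = 0.0045). Its call was lost at a pseudocount of 1 (log2 ratio 0.57) and at an assumed coefficient of variation of 0.2 (edgeR's exact test, adjusted p = 1.0). Retnla had 24 reads in the knockout against 10 in the wild-type, a FPKM ratio of 2.41 (1.17 to 4.97) that was not called (Fisher's exact test, adjusted p = 0.16).

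With IL-4, 1 of the 4 members was called higher in the knockout, where 3.04% of 15573 genes were called higher and 0.764% lower. This was Chil3, with a log2 ratio of 0.82 ± 0.02 and a FPKM ratio of 1.77 (1.73 to 1.81). Its call was also lost at an assumed coefficient of variation of 0.2 (edgeR's exact test, adjusted p = 1.0). Retnla had a FPKM ratio of 1.34 (1.11 to 1.61, Fisher's exact test, adjusted p = 0.017) and a log2 ratio of 0.42 ± 0.14, under the fold required for a call. With a trend of the library differences over transcript length removed, its log2 ratio was 0.60 and it was called (exact binomial test, adjusted p = 2.9e-04). The ratios of Ear2, 1.01 (0.463 to 2.22, Fisher's exact test, adjusted p = 1.0), and of Chil4, 0.482 (0.172 to 1.35, adjusted p = 0.59), were not called, and their intervals allow more than 2-fold differences in either direction for Ear2 and in the lower direction for Chil4.

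The additive fit placed 1.29% of its 11791 genes higher in the knockout (edgeR, adjusted p under 0.05). Chil3 was among them, with a genotype effect of 0.76 on the log2 scale (edgeR, adjusted p = 0.0012). When all genes with a read were fitted, its adjusted p was 0.11 (edgeR). Retnla had an effect of 0.52 (edgeR, adjusted p = 0.22) and Ear2 of 0.02 (adjusted p = 0.99, and -0.03 with upper-quartile scaling). With the length trend as an offset, the effect of Retnla was 0.67 (edgeR, adjusted p = 0.0038).

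**Figure D3:**
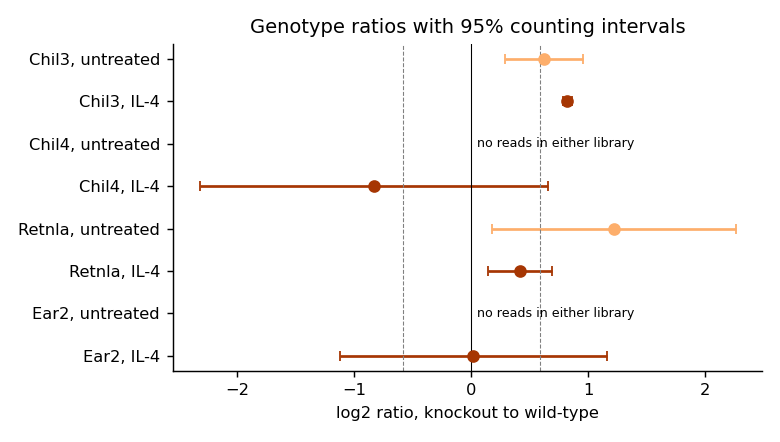
Log2 ratio of knockout to wild-type on the log2(FPKM + 0.1) scale for each member in untreated and IL-4 libraries, with 95% counting intervals and dashed lines at the 1.5-fold threshold. The Chil3 points lay at 0.62 and 0.82, Retnla at 1.22 and 0.42, Ear2 with IL-4 at 0.02 and Chil4 with IL-4 at -0.83.

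The relatives of the members gave further context. In the GH18 chitinase family, 7 of 10 genes had reads in the wild-type pair and 7 in the knockout pair. Chil3 and Chil4 were called higher with IL-4 in the wild-type, where 4.91% of all genes were. Chil3 alone was called higher in the knockout, where 5.29% of all genes were. The Chil4 call rests on reads whose split from Chil3 is uncertain. Chid1, which encodes a chitinase-domain protein, had 328 reads untreated and 411 with IL-4 in the wild-type, then 355 and 411 in the knockout, and Ctbs, the lysosomal chitobiase, had 329 and 330, then 371 and 308. Neither was called in any comparison. Chil6, Chia1 and Chit1 (chitotriosidase) were at 0 in every library. In the resistin family of 4 genes, Retnla alone passed the test for IL-4, while Retnlb and Retnlg were at 0 throughout and Retn (resistin) had at most 1 read.

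Of the RNase A family, 18 of 20 symbols matched, but only 9 genes had reads in the wild-type pair and 7 in the knockout pair. Ear2 and Rnase2a were called higher with IL-4 in both genotypes. The shares called higher over all genes were 4.91% for wild-type and 5.29% for knockout cells. Rnase2a (gene ID 93726), another eosinophil-type ribonuclease, had 0 reads in both untreated libraries and 7 reads in each IL-4 library. Its level with IL-4 was 2.29 times the floor in the wild-type (Fisher's exact test, adjusted p = 0.048). In the knockout it was 2.33 times the floor (Fisher's exact test, adjusted p = 0.033). Neither fold includes the counting error of the 7 reads. The calls of Rnase2a, unlike those of Ear2, were not followed under the alternative settings. Rnase4, with 127.78, 150.87, 110.65 and 129.8 reads in the same order, and Ang (angiogenin), with 8.22, 14.13, 12.35 and 16.2, shared non-whole counts and were not called. Rnase6, an antimicrobial ribonuclease, had 3, 11, 7 and 2 reads and was not called.

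In the IL-4 receptor and STAT6 pathway list, 9 of 21 genes passed the test as higher with IL-4 and 4 as lower in wild-type cells, with a median log2 ratio of 0.34 against -0.03 over all genes, of which 4.91% were called higher and 7.89% lower. In knockout cells 11 were higher and 1 lower, with a median of 0.73 against 0.00 over all genes, of which 5.29% were called higher and 4.04% lower. Among the 10 called in both genotypes, the feedback inhibitor Cish had a log2 ratio of 7.61 in wild-type and of 6.42 in knockout cells, the wild-type value resting on 0 reads in the untreated library. The feedback inhibitor Socs1 rose by 4.81 and 4.41, and the transcription factor Irf4 by 4.53 and 4.60. Klf4 (1.39 in both) and Cebpb (0.79 and 0.73), both transcription factors, rose less, and Il13ra1, a receptor subunit, fell (log2 ratios -0.70 and -0.59). Between genotypes, Myc, Socs3 and Trim24 were lower in the untreated knockout, and with IL-4 Kdm6b, a histone demethylase, was higher and Trim24 lower. Trim24 is the deleted gene itself. The shares over all genes were 0.839% higher and 0.742% lower untreated, and 3.04% and 0.764% with IL-4. The genotype calls of this list were not followed under the alternative settings.

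Among 19 other secreted M2 products, 10 passed the test as higher with IL-4 and 4 as lower in wild-type cells, and 7 and 4 did so in knockout cells. Over all genes the shares called higher and lower were 4.91% and 7.89% in the former and 5.29% and 4.04% in the latter. The median log2 ratios of the list were 0.76 and 1.18, against -0.03 and 0.00 over all genes. Among the 11 called in both genotypes, the collagenase Mmp13 rose by 4.63 and 4.44, the chemokine Ccl7 by 4.01 and 3.26 and the eosinophil chemokine Ccl24 by 4.05 and 3.09 on the log2 scale. Il1rn, the IL-1 receptor antagonist, fell (-0.81 and -1.08), as did the growth factor genes Vegfa (-1.06 and -1.10) and Pdgfb (-2.23 and -2.16). Between the genotypes, F13a1 (coagulation factor XIII subunit A) was called higher in the untreated knockout (log2 ratio 1.18). With IL-4 F13a1 (1.22) and Postn (periostin, 2.44) were called higher and Ccl7 (-1.25) and Mmp13 (-0.66) lower. Over all genes 0.839% were called higher and 0.742% lower untreated, and 3.04% and 0.764% with IL-4. These genotype calls were not followed at an assumed coefficient of variation.

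The genes whose levels across the 4 libraries were most like those of Chil3 and Retnla were picked by the root mean square difference of centred log2(FPKM + 0.1), among the 7464 genes that averaged 5 FPKM or more. For Chil3 they were Tmem26 (0.24), Pdcd1lg2, which encodes PD-L2 (0.43), Cish (0.48), Sprr2a3 (0.60) and Arg1, which encodes arginase 1 (0.64). Untreated levels in wild-type and knockout were 0 and 0.15 FPKM for Cish, 0.11 and 0.12 for Sprr2a3 and 0.37 and 0.32 for Pdcd1lg2. These lie near the 0.1 added, so the distances of these genes depend in part on it. Tmem26 went from 1.36 to 95.76 FPKM with IL-4 in wild-type cells, and from 1.56 to 126.83 FPKM in knockout cells. Arg1 went from 1.84 to 463.16 FPKM and from 5.4 to 733.19 FPKM. For Retnla they were Serpina3g (0.32), Mcf2l (0.33), Serpina3h (0.37), the mannose receptor Mrc1 (0.41) and the transcription factor Batf3 (0.42). Serpina3g and Serpina3h belong to a family of similar genes whose reads may be shared. All the picked genes but Mrc1 reached the average of 5 FPKM only through their IL-4 libraries. The distance between Chil3 and Retnla themselves was 1.33.

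**Figure D4:**
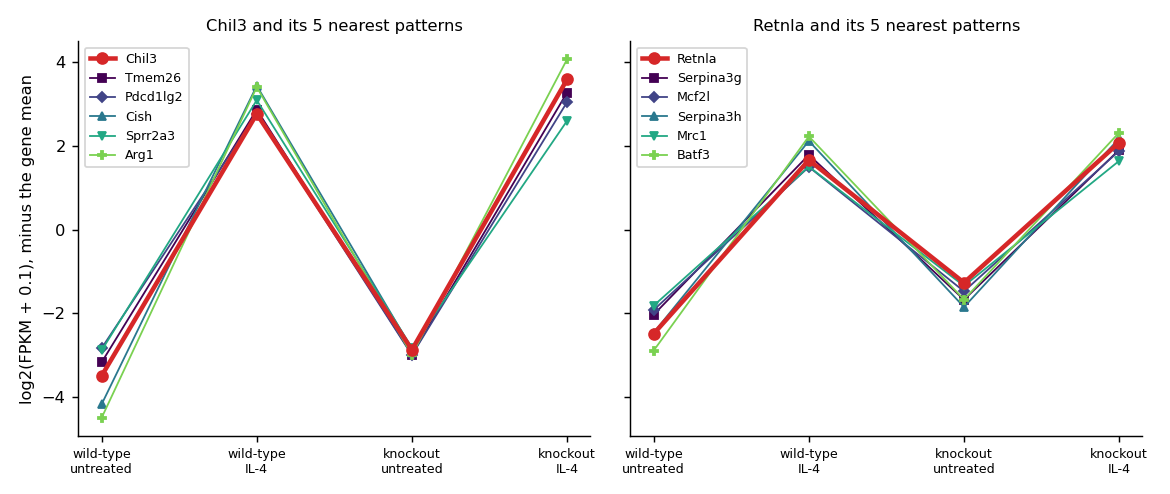
Log2(FPKM + 0.1) minus the mean of each gene over the 4 libraries, for Chil3 (left) and Retnla (right) in red with the 5 genes of nearest pattern. All lines rise in both IL-4 libraries, and the swing of Chil3 is wider than that of Retnla.

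Neighbouring genes were compared with the members. Within 200 kb of Chil3 lie 11 other genes, of which 4 had a read and 1, Wdr77, had at least 10 in a library. Wdr77 was not called with IL-4 in either genotype. Of 7 genes around Retnla 3 had a read, and the 2 with at least 10, Dzip3 and Cip2a, were not called. Around Ear2, 2 of 22 genes had a read, and the 1 with at least 10, 1700047E10Rik, was not called. Retnlb and Retnlg, the nearest relatives of Retnla, flank it and had no reads.

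**Figure D5:**
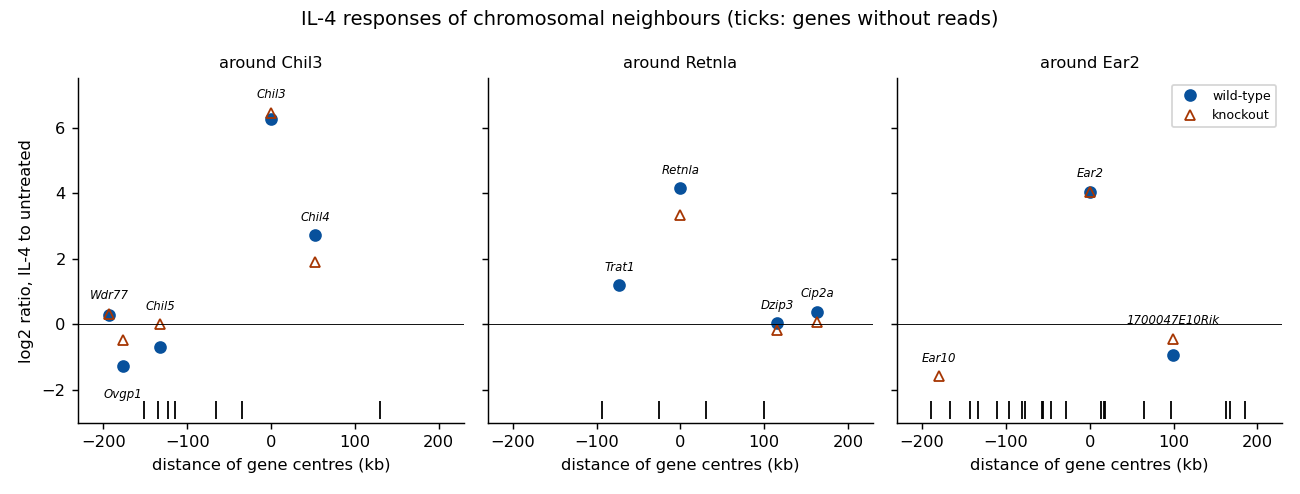
Log2 ratio of IL-4 to untreated for genes within 200 kb of Chil3, Retnla and Ear2, by distance between gene centres in kb, with circles for wild-type, triangles for knockout and ticks for genes without reads; a genotype without reads of a gene has no symbol. The members stand above their neighbours, and in the Chil3 panel Chil4 is the next highest at 2.72 and 1.89.

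Markers of macrophages and of other cell types were measured beside the members. The 7 eosinophil markers summed to 2.43 FPKM untreated and 1.44 with IL-4 in the wild-type and to 2.62 FPKM in the untreated knockout. The sum was lower in each IL-4 library than in its untreated counterpart. Most of the sum was Siglecf, at 1.89 FPKM untreated and 0.95 with IL-4 in the wild-type, and at 2.04 and 1.47 in the knockout. Siglecf was called lower with IL-4 in the wild-type. Which cells gave the Ear2 and Rnase2a reads was not tested. Siglecf had 53, 27, 57 and 41 reads and Il5ra had 18.77, 15.23, 16.95 and 13.97 in wild-type untreated and with IL-4, then knockout untreated and with IL-4, whereas Prg2, Ccr3 and Cebpe had at most 2 reads in a library and the granule protein genes Epx and Prg3 were at 0 in every library. In the same order, the 10 neutrophil markers summed to 14.2, 9.49, 10.4 and 12.8 FPKM. Cxcr2 had 83.9 to 104.73 reads, Mmp8 had 46 to 74 and S100a8 had 21 to 35, Ltf had at most 11 and Elane and Mpo at most 2, and Ly6g, S100a9, Camp and Ngp were at 0 in every library. The 7 mast cell and basophil markers summed to 4.58, 3.62, 8.96 and 5.54 FPKM, higher in the knockout libraries and lower with IL-4 in each genotype. Cpa3 had 15 to 40 reads, Cma1 had 9 to 37 and Tpsb2 had 19 to 37, Mcpt4 and Ms4a2 had at most 2, and Fcer1a and Mcpt8 were at 0 in every library. Of these, Cma1 was called higher in the untreated knockout and Cpa3 in the knockout with IL-4. Cma1 was also called lower with IL-4 in the knockout. The 6 epithelial and mesothelial markers summed to 4.52, 11.1, 2.09 and 6.73 FPKM. Krt8 and Krt18 were called higher with IL-4 in both genotypes and Krt19 in the knockout, while Msln was called lower in the wild-type. Between the IL-4 libraries, Krt8 (FPKM ratio 0.523) and Krt18 (0.465) were called lower in the knockout and Msln (6.88) higher. In the same order Msln had 12, 2, 6 and 13 reads and Upk3b had 12, 7, 13 and 3, and Epcam had at most 1. The 6 resident large peritoneal macrophage markers summed to 5.81, 8.07, 6.34 and 7.26 FPKM, and the 7 lymphocyte markers to 5.84, 4.26, 4.87 and 3.19 FPKM. Among the former, Selp was called higher with IL-4 in both genotypes, and Gata6 lower in the knockout than in the wild-type with IL-4. The 7 macrophage markers summed to 14840, 14737, 8894 and 8287 FPKM. Most of that sum was Lyz2, the locus that carries the Cre, at 11289 FPKM untreated and 10811 with IL-4 in wild-type cells, and at 5193 and 4761 in knockout cells. Lyz2 was called lower in the knockout under both treatments, and Mertk higher in the knockout with IL-4. Csf1r was called higher with IL-4 in both genotypes, and Fcgr1 lower with IL-4 in the knockout. The part of these markers in the values of the members was not tested.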

How the data were processed

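RNA from 4 libraries of mouse peritoneal macrophages, 1 per group, was used. Per the labels the authors mapped reads to GRCm38 (mm10) with Bowtie and counted with RSEM, versions not given in the sources used here. The deposited expected counts were not whole for 22.2% to 22.8% of genes. The authors' FPKM values scale these counts by transcript length and total. Whether counting used strand is not given in the sources used here. Unlisted genes were set to 0. Of 16403 IDs, 16365 matched RefSeq names on GRCm38.p6.

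Samples were grouped by genotype and treatment labels. Counts were rounded and compared per pair of libraries (two-sided Fisher's exact test) with Benjamini-Hochberg adjustment over every gene read in either library. A call needed an adjusted p below 0.05 and more than a 1.5-fold difference, thresholds of the study's methods, on log2(FPKM + 0.1), which understates changes of low genes. Counting SEs used the counts plus 0.5. Single libraries carry 95% Wilson intervals, and folds against 0 use a floor of 3 reads per library. These folds are not lower bounds, since they leave out the counting error of the other library. The additive fit used edgeR 4.0.16 (TMM, filterByExpr, quasi-likelihood) in R 4.3.3, and DESeq2 1.42.0 was an alternative. Other alternatives were the pseudocount, a minimum of 1 FPKM, TMM and upper-quartile scaling, a fold of 2, removal of a lowess length trend, summed paralogues, and edgeR's exact test with the biological coefficient of variation set to 0.2 or 0.4. The scripts were tested on simulated data.

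The members, the gene lists (3 families, the IL-4 receptor and STAT6 pathway, other secreted M2 products and 7 marker lists) and the tests were chosen with earlier results of these data known. Named genes were the members, Trim24, family genes with at least 10 reads in a library or sharing non-whole counts with a member, the 3 highest and 3 lowest genes of the pathway and secreted lists called in both genotypes, and the 5 nearest patterns of members with at least 10 reads in every library. Rnase2a, Retn and genes at 0 were named after their values were seen, as were the other list genes that changed with genotype, the neighbours and the markers.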

Additional observations from a re-analysis of the deposited data

How the results depend on the processing

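Over 141 recomputed values of the members, 123 kept their direction and their side of the threshold. All 18 recomputed IL-4 responses of Chil3 did, and 15 of 16 for Retnla. The values that did not are grouped by setting, and their cause was not tested except where fewer genes or a stricter threshold gave the change by construction. The pseudocount and fold settings reused the same p-values, so they could change a call only through the fold. Summing the paralogues left Chil3 almost as it was. The tally also includes the fitted IL-4 effects of Ear2, which are not given above.

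At a fold of 2, the calls of Chil3 between genotypes were lost (log2 ratios 0.62 untreated and 0.82 with IL-4), and genes called higher and lower numbered 403 and 458 for IL-4 in wild-type cells, 451 and 259 in knockout cells, 75 and 52 between genotypes untreated and 113 and 58 with IL-4. The respective counts at a fold of 1.5 were 766 and 1230, 832 and 636, 131 and 116, and 474 and 119. At a pseudocount of 1, the log2 ratio of Chil3 untreated was 0.57, genes called lower were 758 for IL-4 in the wild-type and 66 between genotypes untreated, and with IL-4 244 genes were higher and 77 lower in the knockout. With the length trend removed, 816 genes were lower with IL-4 in the wild-type and 217 higher in the knockout with IL-4, and Retnla was called in the latter pair at 0.60.

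At an assumed coefficient of variation of 0.2, genes higher and lower numbered 178 and 80 (IL-4, wild-type), 209 and 63 (IL-4, knockout), 10 and 5 (genotype, untreated) and 16 and 5 (genotype, IL-4). At 0.4 they numbered 41 and 4, 32 and 1, 4 and 3, and 7 and 4. With either value the IL-4 calls of Chil4 in the wild-type (2.72) and of Ear2 in wild-type (4.04) and knockout (4.05) cells were lost, as were both genotype calls of Chil3 (0.62 and 0.82). At 0.4 that of Retnla for IL-4 in the knockout (3.35) was lost as well (edgeR's exact test, adjusted p = 0.13).

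In the additive fit, 1419 genes were higher and 1568 lower with IL-4, and 152 higher and 44 lower in the knockout. DESeq2 called 622 and 640 for IL-4 and 60 and 8 for genotype, and edgeR on all genes with a read called 870 and 805, and 18 and 6, with Chil3 (0.76) no longer called for genotype. Upper-quartile scaling gave 331 and 163 for genotype and turned Ear2 to -0.03. The length offset gave 399 and 225 and called Retnla (0.67). No paired analysis was possible by replicate number, because the labels carry none; the additive fit sets the IL-4 comparison in blocks of genotype. With 1 library per group no replicate could be left out. Depth limits Chil4, Ear2 and untreated Retnla, which rest on 24 reads or fewer in a library.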
